A study of Mus musculus with 22 samples.

Results

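Winnie-Prolapse mice were compared to Winnie mice to set severe against milder colitis in animals that carry the same mutation. Winnie mice bear a mutation in Muc2, the gene of the main secreted mucin of the colon, on the C57BL/6 background, and they develop colitis without any agent being given. The part described here is the 14 libraries, of 22 in all, whose columns are named for Winnie or for prolapse. It holds 7 Winnie libraries from mice aged 14 weeks (3 males, 4 females) and 7 Winnie-Prolapse libraries from mice aged 18 weeks (4 males, 3 females), each from the distal colon of 1 mouse. The labels call the first group inflamed and the second severely inflamed. The other 8 libraries are from C57BL/6 mice aged 14 weeks, with 4 of each sex, and they serve here as a background. Rectal prolapse and age changed together, so that prolapse, severity and 4 more weeks of age cannot be told apart.

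In the healthy colon, goblet cells release Muc2 as a gel that keeps bacteria away from the epithelium, and colonocytes take up salt, water and butyrate, which they burn in their mitochondria. When the barrier fails, epithelial cells and macrophages release interleukin 1, chemokines and acute phase proteins, neutrophils enter the mucosa, and stromal cells make enzymes that cut the matrix. A prolapsed rectum is exposed to the outside, and the junction of the colon with the squamous lining of the anus lies next to it.

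RNA reads were counted per gene, with 24.8 to 33.8 M counts in the Winnie-Prolapse libraries and 25.9 to 36.3 M in the Winnie libraries. Values below are CPM, the counts of a gene scaled to a common library total, and differences are fitted log2 fold changes of Winnie-Prolapse over Winnie with their standard errors. Levels in CPM are not divided by gene length, so changes are compared between groups, not levels between genes. A gene called most abundant had the highest CPM of those in question, with no correction for length. In whole tissue, more cells of a type and more RNA per cell cannot be told apart.

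Some Winnie-Prolapse libraries held transcripts of tissues other than colon. Krt5, the keratin of the basal layer of squamous epithelium, was at 390, 235, 42.7, 113 and 647 CPM in Winnie-Prolapse replicates 2, 4, 5, 6 and 7. It was at 0.0592 and 0.0605 CPM in replicates 1 and 3, at 12.9 CPM in Winnie replicate 2 and at or below 0.361 CPM in the other Winnie libraries. Trp63, the transcription factor that defines squamous basal cells, reached 39.1 CPM in Winnie-Prolapse and 1.09 CPM in Winnie. The 15 skeletal muscle genes summed to 4792, 1779 and 669 CPM in Winnie-Prolapse replicates 2, 4 and 5, to 214 CPM in Winnie replicate 3 and to 23.2 CPM or less in the other 10 libraries of these groups. Myh4, the fast myosin of skeletal muscle, had 892 and 803 counts in Winnie-Prolapse replicates 2 and 4, 26 counts in Winnie replicate 3 and 0 in the other 11 libraries of these groups. Milk protein genes took 18.98% of the counts of Winnie-Prolapse replicate 6. Hoxd13, which marks the hindgut, lay between 111 and 235 CPM in Winnie-Prolapse and between 119 and 226 CPM in Winnie. Some libraries lay away from the rest of their group. On the first principal component of the 14 libraries (55.9% of the variance), Winnie replicate 5, at -52.0, lay beside the C57BL/6 libraries, which were at -50.7 to -46.2. Its interferon response genes summed to 512 CPM and its MHC class II genes to 993 CPM, within the C57BL/6 ranges of 508 to 808 CPM and 391 to 1477 CPM. Winnie-Prolapse replicates 1 and 3, at -15.0 and -21.5, lay within the Winnie range of -52.0 to -1.89, and the other Winnie-Prolapse libraries at 19.7 to 82.7. C57BL/6 replicate 7 stood apart from its group, with Hoxd13 at 0.217 CPM, and it sets the lowest C57BL/6 value of some genes below. The median log2 fold changes of the main lists are given below also without the libraries with Krt5, and the part of the other tissues in each result was not tested. That fit kept only Winnie-Prolapse replicates 1 and 3, both males and both within the Winnie range above. Loss of other tissues, of females and of the mice outside that range therefore cannot be told apart in it.

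**Figure D1:**
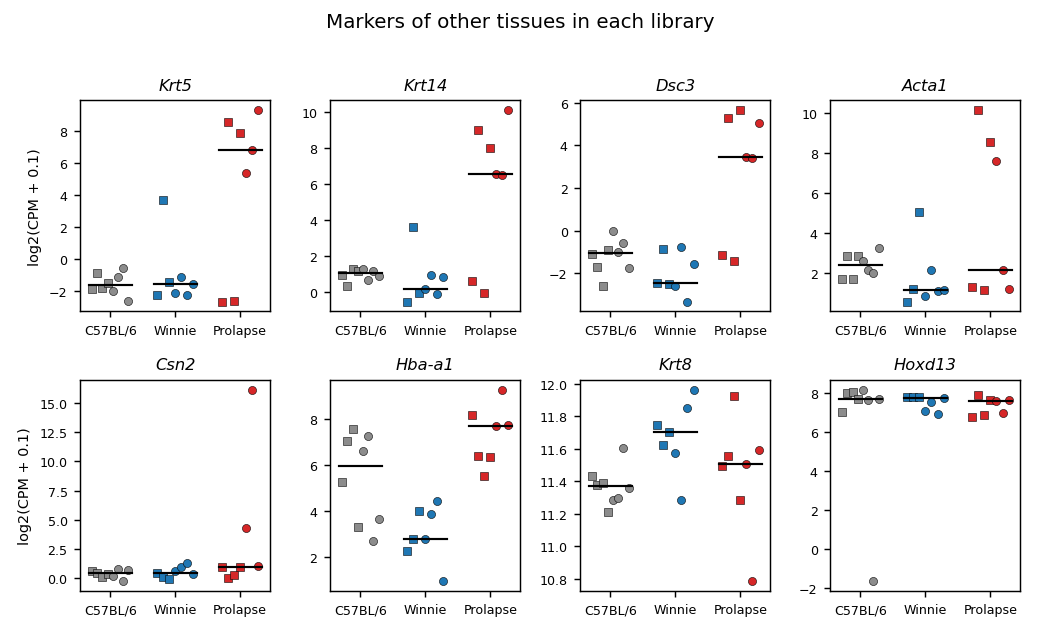
Level of 8 marker genes in each library, as log2 of CPM plus 0.1, for C57BL/6, Winnie and Winnie-Prolapse mice. Squares are males, circles females and bars group medians. Krt5, Krt14 and Dsc3 (squamous epithelium) are high in 5 of 7 Winnie-Prolapse libraries, Acta1 (skeletal muscle) in 3 and Csn2 (milk) in 1, while Krt8 and Hoxd13 (colon) lie at similar levels in both Winnie groups.

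Among 17041 genes, 727 were upregulated and 464 were downregulated in Winnie-Prolapse when compared to Winnie mice. A gene was called when it changed by 1.5-fold or more with an adjusted p under 0.05 (Benjamini-Hochberg) in the quasi-likelihood test of edgeR. That is 4.27% of the genes tested upregulated and 2.72% downregulated. These shares are the background for the lists below, apart from those excepted where the shares are compared. Over all 14 libraries, increases were larger than decreases. The median log2 fold change was 1.54 among the upregulated and -1.02 among the downregulated genes, and 254 genes rose but 32 fell by 4-fold or more. For the same called genes the medians were 1.18 and -0.88 without the 3 libraries rich in skeletal muscle transcripts. Without the 6 libraries with Krt5 they were 0.78 and -0.78, so that increases were no longer the larger, but all Winnie-Prolapse libraries left were from males. The CPM of the groups did not overlap for 59 upregulated and 70 downregulated genes, and for 164 of all genes tested (0.962%). No gene passed the adjusted p of 0.001 that the study used, so that 0 genes (0.0%) were called at that limit, with 4743 genes at an unadjusted p under 0.05 and 644 genes called there by DESeq2. The smallest adjusted p was 0.00628, for Nr1d1 (edgeR).

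The 4 Winnie females carry consecutive animal numbers, so that what they may share beyond sex and group cannot be told apart from these. Fitted apart, the sexes gave different numbers of calls. With 3 Winnie-Prolapse and 4 Winnie females, 1406 of 17383 genes were upregulated and 1086 downregulated. List counts in females are to be read against these shares, not against those of all 14 libraries. With 4 Winnie-Prolapse and 3 Winnie males, 0 of 17560 genes were called (edgeR, adjusted p of 0.823 at best), while 918 reached an unadjusted p under 0.05. Even so, 1185 of the 1187 called genes that could be tested in males had the same sign there, though males are part of the comparison that called them. The median log2 fold change of the upregulated genes was 1.08 in males and 1.88 in females, and that of the downregulated genes -0.60 and -1.35. The test of the difference itself, the sex by group interaction, called 0 of 18400 genes, with 2334 at an unadjusted p under 0.05 and a smallest adjusted p of 0.123 (edgeR). Nos2, the inducible nitric oxide synthase of inflamed epithelium and macrophages, was not called, at 2.14 ± 0.82 (SE; edgeR, adjusted p = 0.108), and its values are given by sex. It was at 289, 165 and 54.1 CPM in the Winnie males and at 17.8, 2.36, 11.9 and 130 CPM in the Winnie females. In Winnie-Prolapse it was at 276, 92.3, 132 and 452 CPM in the males and at 818.5, 546 and 562 CPM in the females. The ranges of Winnie and Winnie-Prolapse males overlapped, while all Winnie females lay below all Winnie-Prolapse females.

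**Figure D2:**
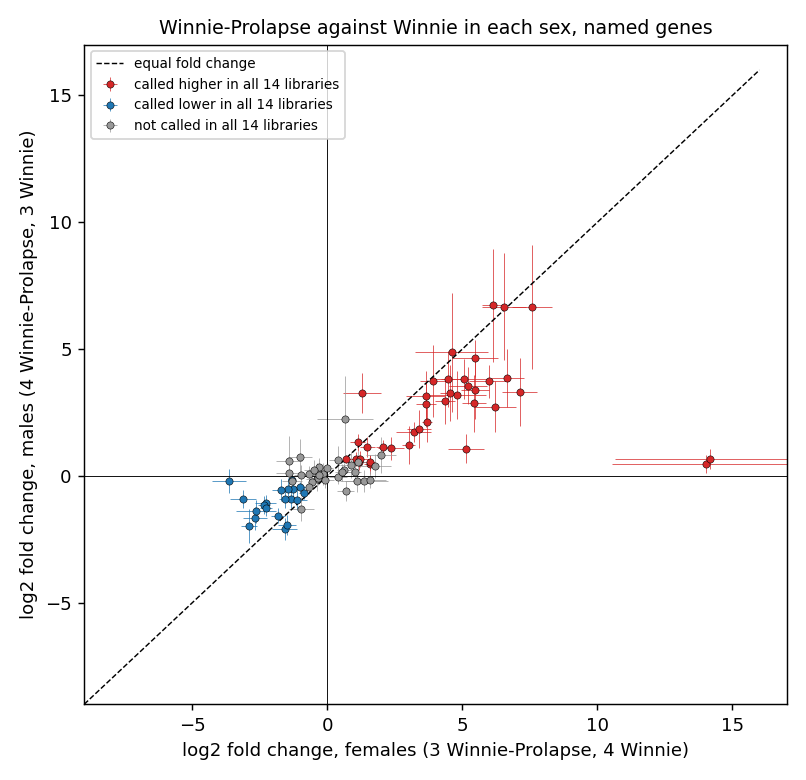
Log2 fold change of Winnie-Prolapse over Winnie in females (horizontal) and in males (vertical) for the 90 named genes, with standard errors as bars. Of 38 upregulated genes, 33 had the larger increase in females, and of 20 downregulated genes, 18 had the larger decrease in females; the genes at the far right are the milk genes Csn2 and Csn1s2a.

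Single libraries moved these counts. Leaving out each library in turn gave from 272 to 1108 upregulated and from 160 to 843 downregulated genes, and 370 of the 1191 called genes were called in all 14 of these fits. Without Winnie replicate 5 there were 338 upregulated and 170 downregulated genes, without Winnie-Prolapse replicate 1 there were 945 and 565, and without replicate 3 of that group 1037 and 843. Without the 3 libraries rich in skeletal muscle transcripts, 15 genes were upregulated and 2, Pax6 and Nr1d1, were downregulated. Without the 6 libraries with Krt5 (5 Winnie-Prolapse, 1 Winnie), which left 2 Winnie-Prolapse males, 6 genes were upregulated and 1, Gstm2-ps1, was downregulated. The directions changed far less than the calls, with 1187 of 1191 called genes on the same side in the first of these fits and 1129 of 1177 in the second, which are fits on part of the same libraries. Calls within the gene lists below were lost in the same way. Where a list had few calls, leaving out Winnie-Prolapse replicate 6 alone removed some or all of them in most of the lists. Over all genes, that fit kept 590 of the 1191 calls, so a loss within a list is to be read against this. In males alone, 0 members of any list were called. Without the muscle-rich libraries, 6 red blood cell genes, 1 matrix protease, 1 glycolysis gene and 1 clock gene were called, and 0 members of the other lists. In the fit without the libraries with Krt5, 1 gene each of the neutrophil, antimicrobial and macrophage lists was still called. Il11, a cytokine gene not called over all 14 libraries, was also called there, and 0 members of the other lists.

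The largest increases without overlap between the groups were those of Il1a, 4 globin and heme genes, and genes of the acute phase and of macrophages. Il1a, the cytokine interleukin 1 alpha that dying epithelial cells release (chr2:129299610-129309972, GRCm38), ranged from 0.131 to 2.37 CPM in Winnie, with a median of 0.540, and from 4.93 to 62.2 CPM in Winnie-Prolapse, with a median of 13.0. All 7 Winnie-Prolapse libraries lay above all Winnie libraries, and C57BL/6 mice had at most 0.579 CPM. Il1a shares bases with Gm14023 on the other strand, as do Alas2 with Apex2, Nr1d1 with Thra, Mmp12 with Mmp1b and Acsm3 with Eri2, so that reads of such pairs may mix. The rise was 34.3-fold, or 5.10 ± 0.78 (SE) on the log2 scale (edgeR, adjusted p = 0.00787). It was not called without the muscle-rich libraries, at 4.63 ± 0.76 (SE; edgeR, adjusted p = 0.0520), or without those with Krt5, at 3.55 ± 0.54 (SE; edgeR, adjusted p = 0.0918). Winnie-Prolapse males (4.93 to 62.2 CPM) and females (13.0 to 44.8 CPM) both stood above the highest Winnie library.

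Saa3, an acute phase protein made by macrophages and epithelium, ranged from 0.492 to 33.9 CPM in Winnie and from 39.3 to 252.5 CPM in Winnie-Prolapse. Its increase was 3.90 ± 0.89 (SE; edgeR, adjusted p = 0.0223). Hp, the hemoglobin scavenger haptoglobin, was at 0.169 to 9.32 CPM in Winnie and 13.2 to 161 CPM in Winnie-Prolapse, an increase of 4.06 on the log2 scale (edgeR, adjusted p = 0.0183). Without the muscle-rich libraries neither was called, with Saa3 at 3.39 and Hp at 2.93, nor without those with Krt5, with Saa3 at 3.60 and Hp at 3.07. Chil1, a chitinase-like protein of macrophages and inflamed epithelium, went from a median of 0.424 CPM to a median of 6.08 CPM, and it was among the 6 genes upregulated without the libraries with Krt5, at 2.77 ± 0.30 (SE), but it was not called without the muscle-rich ones, at 3.13 ± 0.53 (SE; edgeR, adjusted p = 0.0560). F10, coagulation factor X, had a median of 0.347 CPM in Winnie and 4.35 CPM in Winnie-Prolapse. Ifitm6, an interferon-induced membrane protein gene of myeloid cells, had medians of 0.5503 and 2.54 CPM, and its lowest Winnie-Prolapse library, at 0.817 CPM, lay just above the highest Winnie library, at 0.705 CPM.

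The globin genes Hba-a1, Hbb-bs and Hbb-bt and Alas2, the first enzyme of heme synthesis in red cell precursors, rose by 4.52 to 5.07 on the log2 scale. Hba-a1 was at 1.81 to 21.5 CPM in Winnie and 46.7 to 628 CPM in Winnie-Prolapse, but C57BL/6 mice spanned both, at 6.41 to 190 CPM. Of the 8 red blood cell genes tested, 7 were upregulated. They summed to 112 to 1528 CPM in Winnie-Prolapse, 6.66 to 58.1 CPM in Winnie and 19.96 to 494 CPM in C57BL/6, so the Winnie group was the low one. Red cells in vessels and in blood on the tissue carry these transcripts, and the near-identical globin copies may share reads. Of the 7, 6 were upregulated also without the muscle-rich libraries, where Hba-a1 rose by 5.01 ± 0.71 (SE). Without the libraries with Krt5, 0 of 8 were called, with Hba-a1 at 3.96 ± 0.75 (SE; edgeR, adjusted p = 0.179), and in males alone 0 of 8 (edgeR, adjusted p = 0.823 for Hba-a1).

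**Figure D3:**
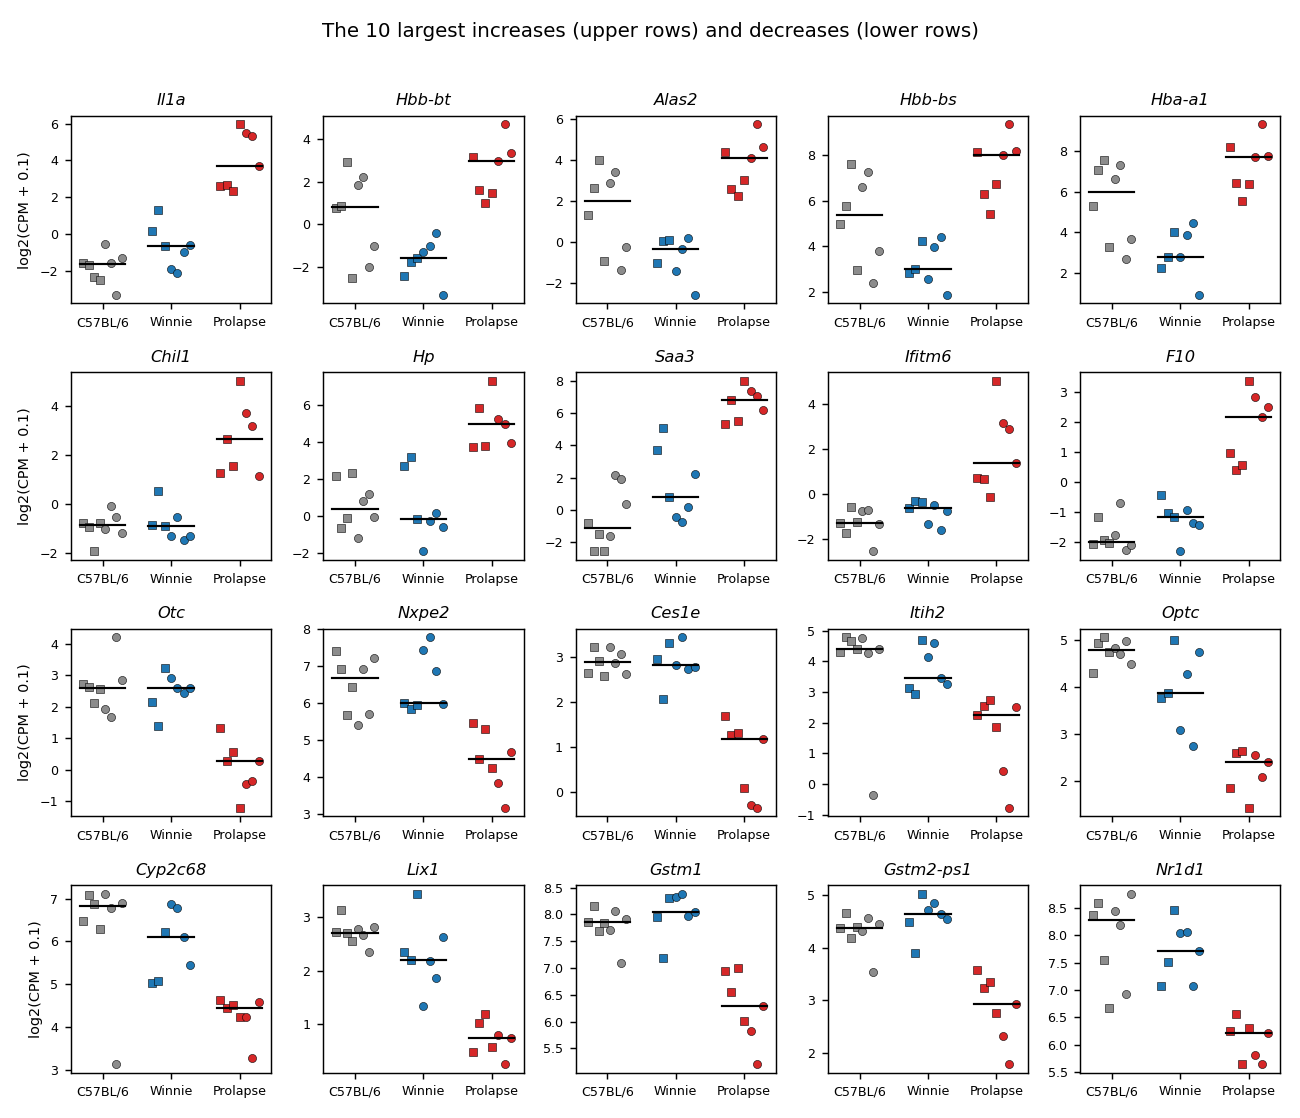
Levels of the 10 genes with the largest increases and the 10 with the largest decreases among called genes whose groups did not overlap, as log2 of CPM plus 0.1 in each library. Squares are males, circles females and bars medians. Il1a and Saa3 are above every Winnie library in all 7 Winnie-Prolapse mice, and the globin genes also range widely in C57BL/6 mice.

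Of 18 neutrophil genes tested, from 25 listed, 13 were upregulated and 0 downregulated, with a median log2 fold change of 3.75. This median is not set against that of all genes, since members could pass the low-count filter through the libraries where they were high. S100a8, a subunit of the antimicrobial protein calprotectin, ranged from 0.0984 to 36.2 CPM in Winnie (median 2.39) and from 21.4 to 356 CPM in Winnie-Prolapse (median 78.9), and stayed at or under 0.617 CPM in C57BL/6. The groups overlapped through Winnie replicate 2, and the rise was 3.97 ± 1.05 (SE; edgeR, adjusted p = 0.0330). Fpr2, a formyl peptide receptor that guides neutrophils, had the smallest p of the list and rose by 3.89 ± 0.74 (SE). Lcn2, which withholds iron from bacteria, went from a median of 2.005 CPM to a median of 49.7 CPM, and Retnlg rose by 5.81 ± 1.29 (SE). Cd177 and Ly6g, listed for their proteins on the neutrophil surface, were not called. Ly6g had medians of 486 CPM in Winnie-Prolapse, 391 CPM in Winnie and 286 CPM in C57BL/6. In C57BL/6 it was thus high where S100a8 was at or under 0.617 CPM, so Ly6g is not read here as a measure of neutrophils. Without the libraries with Krt5 the median of the list was 2.70, and in males alone it was 2.72. Without Winnie-Prolapse replicate 6, 8 of the 18 were upregulated.

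Of 19 cytokine and receptor genes, 9 were upregulated and 0 downregulated. Among the ligands, Il1b, the interleukin released through the inflammasome, had medians of 5.94 and 57.4 CPM and rose by 3.16 ± 0.76 (SE). Il6, the inducer of the acute phase, had medians of 0.0335 and 1.58 CPM and rose by 4.18 ± 1.15 (SE). Il33, an alarmin of epithelial and stromal nuclei, ranged from 1.49 to 5.96 CPM in Winnie, from 5.45 to 26.5 CPM in Winnie-Prolapse and from 3.59 to 8.32 CPM in C57BL/6, so that Winnie mice held the lowest values. Osm, oncostatin M, rose by 3.71 ± 0.94 (SE), and its receptor gene Osmr by 1.46 ± 0.38 (SE). Il1rn, the natural antagonist of interleukin 1 and the most abundant member, rose least of the 9, by 0.72 ± 0.11 (SE; edgeR, adjusted p = 0.00804), from a median of 142 to a median of 263 CPM. Tnf, with medians of 7.37 and 24.2 CPM, and Il17a, with medians of 0.115 and 0.444 CPM, were not called. The median of the list was 1.46, and 1.003 without the libraries with Krt5.

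Of 24 chemokine genes, 11 were upregulated and 0 downregulated. Among the neutrophil attractants, Cxcl3 was at 0 to 1.86 CPM in Winnie and 0.454 to 28.4 CPM in Winnie-Prolapse, and it was at 0.0386 CPM or less in C57BL/6. Its groups overlapped only through Winnie-Prolapse replicate 3, and its rise of 4.65 ± 0.93 (SE) had the smallest p of the list (edgeR, adjusted p = 0.0165). Cxcl2 rose by 4.22 ± 1.02 (SE) and Cxcl1 by 2.65 ± 0.70 (SE). Of the monocyte attractants, Ccl2 rose by 2.52 ± 0.62 (SE), and Ccl3 rose by 3.59 ± 0.75 (SE) with no overlap, from 0.203 to 1.08 CPM in Winnie to 1.09 to 20.5 CPM in Winnie-Prolapse. Cxcl10, which draws T cells, was at 1.15 to 22.7 CPM in Winnie and at 26.3 to 130 CPM in Winnie-Prolapse. Ccl6, the most abundant member, did not pass the test, with medians of 220.0 and 192.0 CPM. The median of the list was 1.48, and 0.84 without the libraries with Krt5. Neither that fit, with Cxcl3 at 3.47, nor the fit without the muscle-rich libraries, with Cxcl3 at 4.11, called a chemokine gene, and without Winnie-Prolapse replicate 6, 7 of 24 were upregulated.

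Cxcl1, Cxcl2 and Cxcl3 lie in the same region of chromosome 5 and are textbook targets of NF-kappa B, so their promoters are shown. The 250 bases before the start of each gene are from RefSeq (GRCm38.p6, plus strand), at chr5:90890995-90891244, chr5:90903649-90903898 and chr5:90785851-90786100. Capitals mark matches to the kappa B letters, which are GGGA, then any base, then TTTCC, searched on both strands.
Cxcl1: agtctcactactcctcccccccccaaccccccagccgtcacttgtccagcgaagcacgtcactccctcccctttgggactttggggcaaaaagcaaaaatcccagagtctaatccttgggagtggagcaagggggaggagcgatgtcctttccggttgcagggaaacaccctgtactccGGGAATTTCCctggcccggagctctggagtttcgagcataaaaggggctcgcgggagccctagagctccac
Cxcl2: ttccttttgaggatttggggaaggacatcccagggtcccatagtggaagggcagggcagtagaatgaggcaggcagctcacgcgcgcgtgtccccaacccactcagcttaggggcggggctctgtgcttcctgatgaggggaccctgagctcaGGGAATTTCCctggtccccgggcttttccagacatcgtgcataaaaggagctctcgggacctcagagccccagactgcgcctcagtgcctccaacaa
Cxcl3: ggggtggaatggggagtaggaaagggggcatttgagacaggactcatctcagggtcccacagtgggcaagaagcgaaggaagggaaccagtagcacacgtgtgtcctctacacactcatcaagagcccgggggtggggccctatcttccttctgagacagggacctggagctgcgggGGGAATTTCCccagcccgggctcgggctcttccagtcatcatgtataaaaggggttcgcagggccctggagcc
Each window held 1 match, 71, 97 and 73 bases from the start, and all 3 shared the bases GGGAATTTCC. Of 32817 promoter windows of this length, 0.357% held a match. Of the 16 chemokine genes tested that had a window, these 3 held a match, while 2 other upregulated ones, Cxcl10 and Ccl3, and the 11 not called held none. Among the 16 cytokine and receptor genes with a window, Il6 held a match, and the other 7 upregulated genes and the 8 not called held none. A match describes the sequence and is not a measured site.

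Acute phase and complement genes rose in 9 of 18 tested and fell in 0, with a median of 1.68, and of 1.002 without the libraries with Krt5. Without Winnie-Prolapse replicate 6, 4 were upregulated. Besides Saa3 and Hp, Cp, the copper carrier ceruloplasmin, went from a median of 9.78 to 52.3 CPM, and C3, the central complement protein, from 74.9 to 291 CPM. Saa1, the most abundant member and a product of colon epithelium, was not called and ranged from 79.6 to 1622 CPM in Winnie-Prolapse and from 340 to 1300 CPM in Winnie. Of 16 epithelial antimicrobial and oxidase genes, 4 were upregulated, and 1 without that library. Reg3b, a lectin that binds bacteria, ranged from 0.116 to 21.2 CPM in Winnie and from 2.19 to 517 CPM in Winnie-Prolapse, where replicate 1 was the lowest, and rose by 5.56 ± 1.43 (SE; edgeR, adjusted p = 0.0304). Its close relative Reg3g rose by 4.30 ± 1.14 (SE). Lypd8, an anti-flagellar surface protein of colonocytes and by far the most abundant gene of the list, had medians of 15950 and 12220 CPM and was not called.

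Macrophage and monocyte genes rose in 13 of 20 tested and fell in 0, with a median of 1.14, and of 0.82 without the libraries with Krt5. Without Winnie-Prolapse replicate 6, 5 were upregulated. The general markers moved little, with Csf1r at medians of 29.1 and 43.2 CPM and Adgre1 at 10.4 and 11.2 CPM, neither called. Chil3 rose by 4.55 ± 0.95 (SE), Spp1, osteopontin, by 4.13 ± 0.82 (SE), and Itgam, the integrin of myeloid cells, by 1.71 ± 0.44 (SE). Lyz2, the most abundant member, rose by 1.06 ± 0.29 (SE).

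Of 24 T cell and cytotoxic genes, 2 were upregulated, Gata3 and Il2ra. Cd3e, part of the T cell receptor complex, had medians of 2.09 and 3.17 CPM and was not called. Gata3 was at 0.810 to 2.21 CPM in Winnie and at 2.545 to 27.3 CPM in Winnie-Prolapse, without overlap, and rose by 3.24 ± 0.49 (SE; edgeR, adjusted p = 0.00787). Gata3 is also a gene of squamous epithelium, and the 2 Winnie-Prolapse libraries without Krt5, at 2.545 and 2.78 CPM, were the lowest of their group. Without the libraries with Krt5 it was not called, at 1.199 ± 0.33 (SE). Of 25 interferon response genes, Ifng itself was upregulated, by 2.75 ± 0.69 (SE), from a median of 0.368 to 3.16 CPM, while Gbp2, an induced GTPase and the most abundant member, had medians of 377 and 560 CPM and was not called. Of 11 MHC class II genes, 0 were called in either direction, and Cd74, the invariant chain, had medians of 1811 CPM in Winnie and 2606 CPM in Winnie-Prolapse, against 180 CPM in C57BL/6. The medians of the interferon and class II lists were -0.09 and -0.15 in males and 1.36 and 1.28 in females. In females, 5 of 25 interferon genes and 1 of 11 class II genes were upregulated, against 1406 of 17383 genes over all. The class II count stood near that share. Of 21 B cell and plasma cell genes, only Ighg2b was called, with an increase of 2.03 ± 0.49 (SE) from a median of 22.5 to 149 CPM. Igha, the heavy chain of gut IgA, was not called at medians of 3398 and 5721 CPM. Of 154 immunoglobulin variable genes tested, 13 were upregulated and 0 downregulated, where 4.27% and 2.72% of all genes were. That count is not read against these shares, since such genes could pass the low-count filter through the libraries where they were high. These genes resemble each other and their counts are uncertain.

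Squamous epithelium genes gave some of the largest fold changes and were high in the libraries with Krt5. Of 17 keratin genes tested, 11 were upregulated and 0 downregulated. Krt10, of the upper layers of squamous epithelium, was at 372, 507, 74.9, 195.5 and 150.5 CPM in the 5 Winnie-Prolapse libraries with Krt5, at 1.24 and 1.63 CPM in the other two, and at 1.195 to 3.14 CPM in Winnie. Over all 14 libraries it rose by 6.45 ± 1.08 (SE; edgeR, adjusted p = 0.0105), but the log2 fold change was -0.32 without the libraries with Krt5. Krt8 and Krt19, keratins of the simple colon epithelium, did not pass the test, and Krt8 had medians of 2911 and 3326 CPM in Winnie-Prolapse and Winnie. Of 20 cornified envelope and squamous genes, 8 were upregulated and 1, the gasdermin gene Gsdmc3, was downregulated. Dsc3, a desmosomal cadherin, rose by 6.62 ± 1.11 (SE), and Lor, loricrin of the cornified layer, by 6.93 ± 1.40 (SE). The median was 3.57 for the keratins and 1.55 for the cornified list. Without the libraries with Krt5, a choice that by itself lowers keratins, these were 0.13 and 0.15. Trp63 and others that were high in fewer libraries did not pass the low-count filter, and those that passed did so through the libraries where they were high.

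Sprr1a, a cornified envelope protein that regenerating gut epithelium also makes, differed from that pattern. It was at 3.22 to 68.4 CPM in Winnie and at 102 to 289 CPM in Winnie-Prolapse, high in all 7 libraries including both without Krt5, and rose by 2.40 ± 0.48 (SE; edgeR, adjusted p = 0.0161). Ly6d, at 1.97 to 24.4 CPM in Winnie and 29.6 to 144 CPM in Winnie-Prolapse, also did not overlap. Of 16 epithelial serine proteases and inhibitors, 6 were upregulated. Spink5, the inhibitor of skin kallikreins, rose by 7.10 ± 1.28 (SE) and was at 0.148 and 0.272 CPM in the 2 Winnie-Prolapse libraries without Krt5, within the Winnie range. Prss27 rose by 2.89 ± 0.57 (SE), and Plaur, the urokinase receptor, by 2.33 ± 0.45 (SE) from a median of 11.5 to 67.3 CPM. Spint2, the most abundant inhibitor, was not called.

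Matrix proteases and their inhibitors rose in 11 of 20 tested and fell in 0, with a median of 2.28 over all libraries and 1.44 without the libraries with Krt5. Mmp12, the macrophage elastase, had the smallest p of the list and was at 1.32 to 3.27 CPM in Winnie and 2.81 to 30.0 CPM in Winnie-Prolapse, a rise of 2.92 ± 0.46 (SE; edgeR, adjusted p = 0.00787). The collagenase gene Mmp13 was at 1.44 to 33.03 CPM in Winnie and 9.35 to 350 CPM in Winnie-Prolapse, with medians of 5.13 and 109 CPM, and rose by 3.59 ± 0.80 (SE). The stromelysin genes Mmp3 and Mmp10 rose by 4.16 ± 1.03 (SE) and 3.63 ± 0.82 (SE). Timp1, an inhibitor of these enzymes, rose by 1.83 ± 0.33 (SE) with no overlap, at 0.952 to 4.00 CPM in Winnie and 4.02 to 13.6 CPM in Winnie-Prolapse. Timp3, the most abundant member, was not called.

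Mmp3, Mmp10, Mmp12 and Mmp13 sit in a cluster on chromosome 9, and AP-1 is a textbook activator of such genes. The 250 bases before the start of Mmp3 (chr9:7445572-7445821), Mmp10 (chr9:7502092-7502341) and Mmp13 (chr9:7272264-7272513) are from RefSeq (GRCm38.p6, plus strand), with matches to the AP-1 letters TGANTCA on either strand in capitals.
Mmp3: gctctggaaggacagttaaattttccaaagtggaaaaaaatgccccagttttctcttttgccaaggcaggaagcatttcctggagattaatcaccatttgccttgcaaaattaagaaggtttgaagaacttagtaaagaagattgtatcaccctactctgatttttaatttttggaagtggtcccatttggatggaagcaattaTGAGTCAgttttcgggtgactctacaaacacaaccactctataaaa
Mmp10: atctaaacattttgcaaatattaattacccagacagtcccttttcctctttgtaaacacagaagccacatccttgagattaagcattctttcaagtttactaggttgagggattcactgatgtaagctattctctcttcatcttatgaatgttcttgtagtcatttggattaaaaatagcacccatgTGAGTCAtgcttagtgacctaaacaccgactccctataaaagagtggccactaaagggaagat
Mmp13: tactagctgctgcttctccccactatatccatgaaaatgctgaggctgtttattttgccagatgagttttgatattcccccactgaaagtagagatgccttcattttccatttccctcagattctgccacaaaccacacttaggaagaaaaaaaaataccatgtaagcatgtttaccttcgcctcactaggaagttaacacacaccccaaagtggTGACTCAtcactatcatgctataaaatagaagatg
The match lay 46 bases from the start in Mmp3, 63 in Mmp10 and 35 in Mmp13. Of the 8 upregulated genes of the list that had a window, 5 held a match, as did 1 of the 7 genes that were not called, and 6.75% of all windows. No printed match overlapped another of the motifs searched.

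Of 28 fibroblast, collagen and matrix genes, 10 were upregulated and 1 downregulated. Inhba, a subunit of activin, rose by 2.56 ± 0.51 (SE) from a median of 1.17 to 9.73 CPM, and Lox, which crosslinks collagen, by 2.25 ± 0.53 (SE). Grem1, an inhibitor of bone morphogenetic proteins in the muscle layer below the crypts, went from a median of 34.9 to 130 CPM. Col17a1 and Col7a1, collagens that anchor squamous epithelium, rose by 5.04 ± 1.02 (SE) and 2.30 ± 0.59 (SE), and Col17a1 was at 21.2 CPM (median) in Winnie-Prolapse against 0.270 CPM in Winnie. The abundant fibrillar collagen Col3a1 was not called, with medians of 245.5 and 506 CPM. Postn, periostin, fell by 0.64 on the log2 scale and did not overlap, at 68.9 to 135.5 CPM in Winnie-Prolapse and 136.3 to 237 CPM in Winnie. Without the libraries with Krt5 the median of the list fell from 0.88 to 0.18, and without Winnie-Prolapse replicate 6, 5 were upregulated. Of 17 endothelium and adhesion genes, Icam1 and Madcam1, both receptors for leukocytes, were upregulated, by 1.66 ± 0.39 (SE) and 1.12 ± 0.26 (SE).

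Detoxification enzymes held the largest share of downregulated genes, 13 of 29 tested, with 0 upregulated and a median of -1.10. Without Winnie-Prolapse replicate 6, 8 were downregulated. Gstm1, a glutathione transferase (chr3:108012255-108017973), was at 145 to 334 CPM in Winnie, 36.8 to 128 CPM in Winnie-Prolapse and 136.5 to 286 CPM in C57BL/6. Winnie and C57BL/6 mice thus shared a range that no Winnie-Prolapse library reached. The change was -1.69 ± 0.26 (SE; edgeR, adjusted p = 0.00787). It was the smallest p of the list, though Gstm1 was called neither without the muscle-rich libraries, at -1.46, nor without those with Krt5, at -1.14. In parallel, Gstm2-ps1, a pseudogene that resembles the same family and may share its reads, fell by 1.69 on the log2 scale. Cyp2c68, a cytochrome P450, was at 32.8 to 116 CPM in Winnie and 9.67 to 24.7 CPM in Winnie-Prolapse. Cyp2c55, of the same family, showed the largest change of the list, -5.29 ± 1.11 (SE), and in it the Winnie mice were divided. Winnie females had 65.05 to 1164 CPM and Winnie male 3 had 332 CPM, but Winnie males 1 and 2 had 18.3 and 11.6 CPM, next to the 0.564 to 21.2 CPM of Winnie-Prolapse. Ugt2b34, Sult1c2, Aldh1a1 and Fmo5, which conjugate or oxidize foreign compounds, were also downregulated, by 0.94, 1.13, 1.17 and 1.71 on the log2 scale. The median of the list was -0.53 in males, -1.50 in females and -0.62 without the libraries with Krt5.

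Other large decreases without overlap included enzymes. Otc, a urea cycle enzyme of the gut and liver, was at 2.53 to 9.33 CPM in Winnie and 0.331 to 2.43 CPM in Winnie-Prolapse, a change of -2.39 ± 0.39 (SE). Ces1e, a carboxylesterase, fell from a median of 6.99 to 2.17 CPM, and Nxpe2 from a median of 64.0 to 22.2 CPM. Itih2, Optc and Lix1 fell by 1.89, 1.82 and 1.69 on the log2 scale, and in each of them C57BL/6 mice had the highest median.

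Genes of colonocyte absorption fell in 5 of 29 tested and rose in 0, with a median of -0.75. The median was -0.08 in males, -1.41 in females and -0.40 without the libraries with Krt5. In females 15 fell, against 1086 of 17383 genes over all, and 2 fell without Winnie-Prolapse replicate 6. Car1, a carbonic anhydrase of surface colonocytes, was at 219 to 1973 CPM in Winnie, 66.2 to 502 CPM in Winnie-Prolapse and 783 to 3412 CPM in C57BL/6, and changed by -2.09 ± 0.54 (SE; edgeR, adjusted p = 0.0318). Nr3c2, the receptor for aldosterone, had the smallest p and fell by 0.75 on the log2 scale, from 158 to 224 CPM in Winnie to 69.8 to 159 CPM in Winnie-Prolapse. Slc26a3, the chloride exchanger, had medians of 1351 and 160 CPM but was not called (edgeR, adjusted p = 0.0527), and Winnie-Prolapse males 1 and 3, at 726 and 1229 CPM, lay within the Winnie range. Muc3, a membrane mucin and the most abundant member, had medians of 3796 and 2429 CPM and was not called. Of 23 genes of butyrate uptake and fatty acid oxidation, 6 were downregulated and 0 upregulated, with a median of -0.31, and of -0.14 without the libraries with Krt5. Without Winnie-Prolapse replicate 6, 1 was downregulated. The butyrate transporters Slc5a8 and Slc16a1 fell by 0.86 and 0.68 on the log2 scale, with medians of 344 and 164 CPM for Slc5a8. Acsm3, which activates butyrate in mitochondria, was at 142 to 285 CPM in Winnie and 58.5 to 162 CPM in Winnie-Prolapse and had the smallest p, with a change of -1.14 ± 0.22 (SE; edgeR, adjusted p = 0.0148). Ppargc1a and Ppara, regulators of fat oxidation, fell by 0.91 and 0.86.

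**Figure D4:**
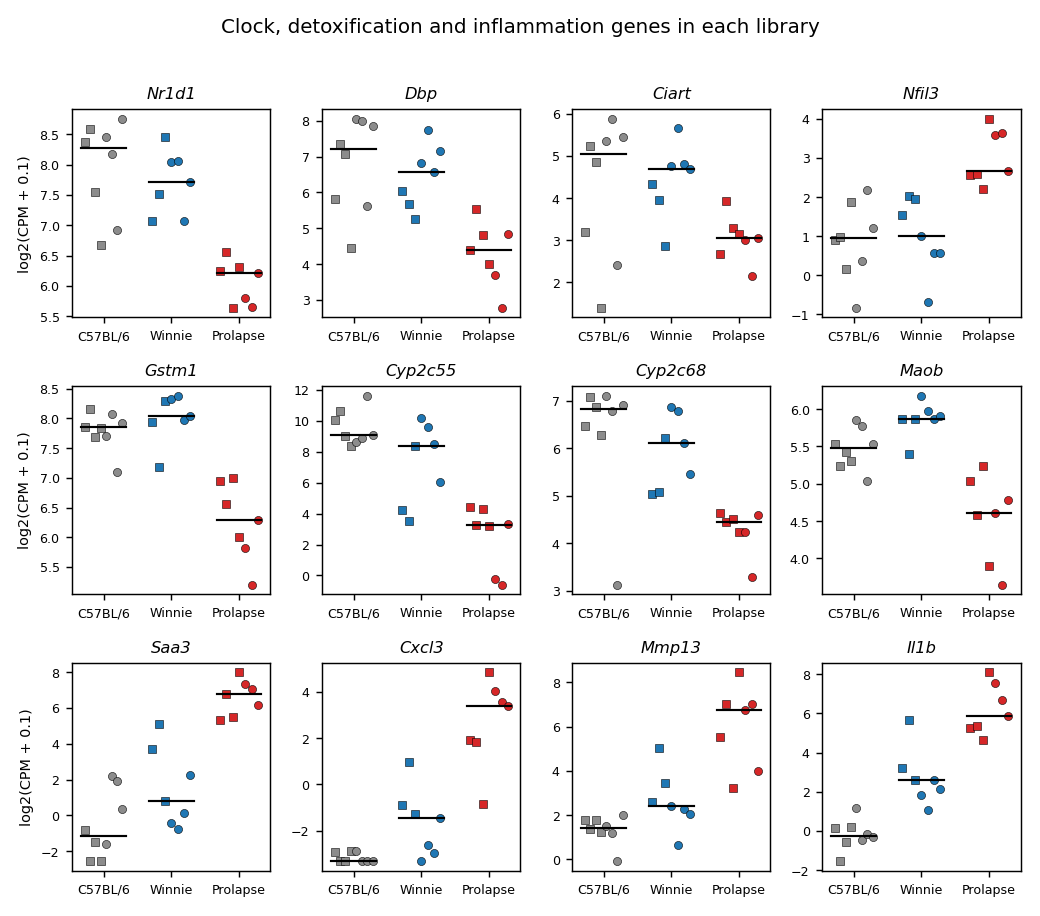
Levels of 4 clock genes, 3 detoxification genes, the amine oxidase Maob and 4 inflammation genes in each library, as log2 of CPM plus 0.1. Squares are males, circles females and bars medians. Gstm1 and Nr1d1 are lower in all 7 Winnie-Prolapse libraries than in any Winnie library, whereas the low Cyp2c55 values of Winnie males 1 and 2 lie among those of Winnie-Prolapse.

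Muc2 itself did not differ between the groups beyond their spread. It was at 1029 to 3254 CPM in Winnie, 1292 to 3079 CPM in Winnie-Prolapse and 2505 to 7901 CPM in C57BL/6 (chr7:141690340-141754693), and the difference was -0.19 ± 0.28 on the log2 scale (SE; edgeR, adjusted p = 0.696). Of 20 goblet cell genes, 3 were downregulated and 1 upregulated, and without Winnie-Prolapse replicate 6 the 3 decreases were not called. Klk1, a kallikrein, and Guca2a, the hormone guanylin, fell by 2.09 and 2.14 on the log2 scale, Bcas1 by 0.94, and the chemokine gene Ccl9 rose by 1.07 ± 0.25 (SE). Muc13, the most abundant member, was not called. The folding load of mutant Muc2 is known to stress the endoplasmic reticulum, and of 25 genes of that response 2 were upregulated. Trib3 rose by 1.77 ± 0.40 (SE) and Asns by 0.97 ± 0.28 (SE), both targets of the amino acid response. The chaperone Calr was not called, with medians of 1125 CPM in Winnie, 1445 CPM in Winnie-Prolapse and 690 CPM in C57BL/6.

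Of 40 tryptophan and NAD genes tested, the subject of the study, 2 were upregulated and 5 downregulated, and 1 each without Winnie-Prolapse replicate 6. Tryptophan is made into serotonin or, through the kynurenine pathway, into NAD. On the serotonin side, Ddc, which makes serotonin, and Slc6a4, which takes it up, fell by 0.88 and 0.98 on the log2 scale. The amine oxidase gene Maob fell by 1.24. Maob was at 42.1 to 72.4 CPM in Winnie and 12.4 to 37.5 CPM in Winnie-Prolapse, without overlap, and at 32.9 to 57.7 CPM in C57BL/6 (edgeR, adjusted p = 0.0140). Aldh2, the most abundant member, which oxidizes the aldehydes that amine oxidases form, changed by -1.02 ± 0.27 (SE), and Aoc1, the histamine-degrading diamine oxidase, fell by 0.97. On the kynurenine side, Ido2 rose by 2.65 ± 0.68 (SE) but stayed at 0.363 to 3.89 CPM, while the log2 fold change of Ido1 was 2.05 and did not pass the test. Bst1, an ectoenzyme that splits NAD and is found on myeloid cells, rose by 2.08 ± 0.44 (SE) from a median of 1.86 to 8.02 CPM.

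Among 19 prostaglandin and eicosanoid genes, 3 were upregulated and 1 downregulated. Ptgs2, the inducible cyclooxygenase, went from a median of 9.92 to 44.8 CPM and rose by 2.32 ± 0.53 (SE). Alox12, a lipoxygenase of platelets and squamous epithelium, was at 0.358 to 2.28 CPM in Winnie and 1.15 to 28.5 CPM in Winnie-Prolapse and rose by 3.90 ± 0.61 (SE; edgeR, adjusted p = 0.00787). Hpgds, which makes prostaglandin D in immune cells, fell by 1.02 on the log2 scale without overlap, and Hpgd, which degrades prostaglandins, was not called. Of 20 glycolysis and hypoxia genes, 5 were upregulated and 0 downregulated. Slc16a3, the transporter that exports lactate, was at 7.13 to 22.4 CPM in Winnie and 30.6 to 71.8 CPM in Winnie-Prolapse, with no overlap, and rose by 1.60 ± 0.23 (SE; edgeR, adjusted p = 0.00787), also with calls in all 14 fits that left out a library. Hk2, hexokinase 2, had medians of 384 and 675 CPM, and Aldoa, the most abundant glycolytic gene, was not called.

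Stem, proliferation and secretory cell genes moved in few members. Of 17 stem cell and Wnt target genes, Ascl2 and Axin2 fell by 0.84 and 0.59 on the log2 scale, while Anxa1 and Cd44, which mark regenerating epithelium, rose by 1.34 ± 0.26 (SE) and 1.31 ± 0.35 (SE). Without Winnie-Prolapse replicate 6, 1 was upregulated and 0 downregulated. Of 20 cell cycle genes, Ccnd1 alone was called, with an increase of 0.87 ± 0.23 (SE), and Mki67 had medians of 158 and 219 CPM. Of 17 enteroendocrine and tuft cell genes, 2, Alox5ap and Cck, were upregulated and 2 downregulated, all 4 called only with Winnie-Prolapse replicate 6 included, the latter being Chga, the granin of endocrine cells, by 0.74 and the tuft cell channel gene Trpm5 by 2.30.

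All 16 smooth muscle genes had a negative log2 fold change, with a median of -0.84, and 3 were downregulated, but 0 without Winnie-Prolapse replicate 6 and 0 in females alone. Cnn1, calponin, was at 135 to 521 CPM in Winnie, 66.4 to 208 CPM in Winnie-Prolapse and 464 to 1036 CPM in C57BL/6, and changed by -1.07 ± 0.29 (SE; edgeR, adjusted p = 0.0384). The most abundant member, Myh11, changed by -1.11 ± 0.34 (SE) and was not called (edgeR, adjusted p = 0.0548). The median of this list was much the same in males (-0.89) and in females (-0.80), and -0.80 without the libraries with Krt5. Kit and Ano1 of the pacemaker cells fell by 0.72 and 0.92, and Kit was also the most abundant of 10 mast cell and eosinophil genes, of which Mcpt4 and Prg2 rose by 2.44 ± 0.72 (SE) and 0.90 ± 0.22 (SE). Of the 10 pacemaker genes, Cdh3 rose by 2.45 ± 0.58 (SE), and it is also a cadherin of squamous basal cells. Of 19 enteric neuron and glia genes, Ret rose by 0.94 ± 0.26 (SE), and 0 were downregulated. Of 14 positional Hox genes and their partners, 0 were called, and Hoxb13, the most abundant, had medians of 409 and 256 CPM and a change of -0.54 ± 0.15 (SE), short of the 1.5-fold limit.

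Genes of the circadian clock included the gene with the smallest p. Nr1d1, which encodes the repressor REV-ERB alpha, was at 134 to 350 CPM in Winnie, with a median of 209, and at 49.8 to 94.3 CPM in Winnie-Prolapse, with a median of 74.4. C57BL/6 mice had 102 to 432 CPM, so that each Winnie-Prolapse library lay below every other library of the series. The change was -1.69 ± 0.20 (SE; edgeR, adjusted p = 0.00628), similar in males (-1.56) and females (-1.83). Of 19 clock genes, a list drawn up because Nr1d1 and Dbp were seen to be low, 6 were downregulated and 2 upregulated. Dbp and Tef, activators of clock output, and Ciart, a repressor, fell by 2.22, 0.97 and 1.56 on the log2 scale. Nfil3, which binds the same sites as Dbp and represses them, was at 0.525 to 3.97 CPM in Winnie and 4.48 to 15.9 CPM in Winnie-Prolapse, a rise of 2.02 ± 0.41 (SE; edgeR, adjusted p = 0.0165). The period genes Per1, Per2 and Per3 and the core activators Arntl and Clock were not called. The time of day at which tissue was taken is not in the labels, and its part in these values was not tested.

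The E-box CACGTG is the letter sequence to which the core clock activators bind. The 250 bases before the start of Ciart (chr3:95882229-95882478, minus strand, RefSeq, GRCm38.p6) held 3 matches, at 116, 58 and 44 bases from the start, shown in capitals.
Ciart: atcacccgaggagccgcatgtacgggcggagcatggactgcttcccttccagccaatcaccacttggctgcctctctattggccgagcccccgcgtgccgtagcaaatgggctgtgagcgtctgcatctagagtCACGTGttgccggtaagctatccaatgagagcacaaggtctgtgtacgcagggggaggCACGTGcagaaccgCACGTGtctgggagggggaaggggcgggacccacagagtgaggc
Tef held 1 match in each of its 2 windows, and the other 4 downregulated clock genes held none in theirs. Of the 8 clock genes that were not called and had a window, 3 held a match, and so did 6.02% of all windows.

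Shares of called members differed between the lists. Against 4.27% upregulated over all genes, 13 of 20 macrophage genes and 11 of 20 genes of matrix proteases and inhibitors were upregulated, and against 2.72% downregulated, 13 of 29 detoxification genes were downregulated. The shares of keratin (11 of 17) and neutrophil genes (13 of 18, from 25 listed) are not read against it. Such genes could pass the low-count filter through the libraries where they were high. The same holds for the cytokine list (19 of 30 members tested) and the cornified envelope list (20 of 37 members tested). It also holds for serine proteases (16 of 21), skeletal muscle (10 of 15) and mast cells and eosinophils (10 of 15). The clock list is not read against the background either, since it was drawn up from these data. Interferon response genes (1 of 25), B cell genes (1 of 21) and cell cycle genes (1 of 20) stood close to the background. The other lists of tissues next to the colon gave 5 of 6 milk genes, all through Winnie-Prolapse replicate 6, and 1 of 10 skeletal muscle genes, Acta1, through the 3 muscle-rich libraries. Csn2, beta casein, was at 72840 CPM in that library, at 19.5 CPM in Winnie-Prolapse replicate 5 and at 2.39 CPM or less in the other 12. Of 10 fat cell genes tested, Pck1 fell by 2.47, though it was not called without Winnie-Prolapse replicate 6, and the list summed to 62.3 to 888 CPM in Winnie-Prolapse and 62.3 to 521 CPM in Winnie. Few members of the other tissue lists passed the low-count filter. Of 3 tested in each, Upk1a of the urothelium list fell by 1.13, Tchh of the hair and skin list rose by 3.40 ± 0.61 (SE), and 0 of the mesothelium and pancreas list were called.

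**Figure D5:**
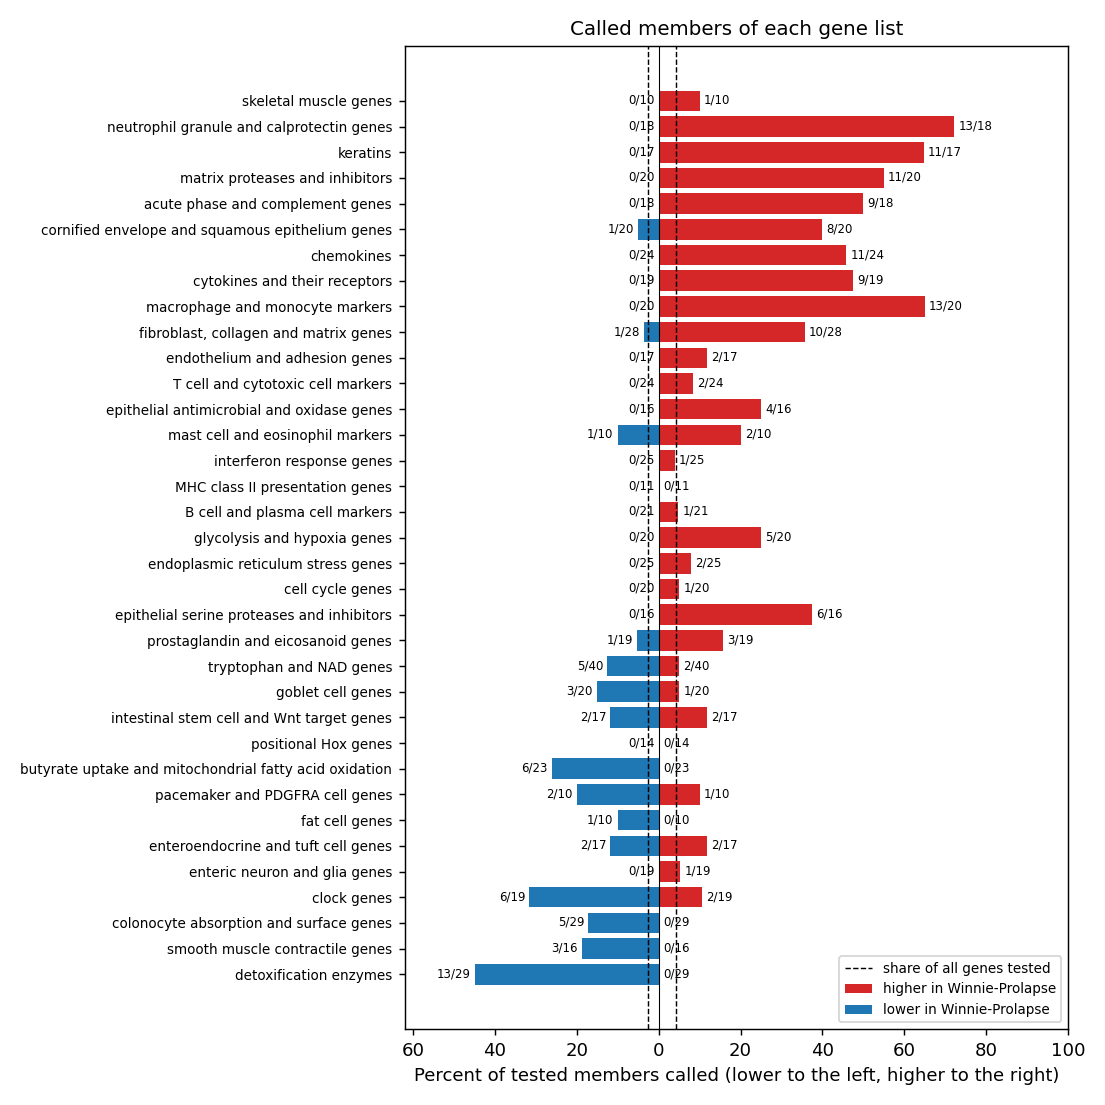
Percent of the tested members of each gene list that were upregulated (red, to the right) or downregulated (blue, to the left) in Winnie-Prolapse when compared to Winnie mice, with counts at the bar ends, for lists with at least 10 tested members, ordered by median log2 fold change. Dashed lines mark 4.27% and 2.72%, the shares over all genes tested. The keratin, neutrophil, cytokine, cornified envelope, serine protease, skeletal muscle, mast cell and clock lists are not read against these lines.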

How the data were processed

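Poly(A) RNA from the distal colon was prepared as stranded libraries and sequenced in paired ends. The paper names Micromon Genomics for library construction, sequencing and bioinformatics. Reads were run through the RNAsik pipeline (STAR per the submitters' processing notes) on GRCm38 and counted with featureCounts. The deposited table holds raw counts of 46078 genes. Annotation release, strand setting and handling of shared reads are not given in the sources used here, so overlapping, antisense and near-identical genes are uncertain. Columns were matched to samples by name.

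Counts of the 14 Winnie libraries were tested with edgeR 4.0.16 (R 4.3.3), with TMM factors, filterByExpr, the quasi-likelihood F test and Benjamini-Hochberg adjustment. Called genes had an adjusted p under 0.05 and a 1.5-fold change. The study limit of 0.001, DESeq2 1.42.0, limma-voom (limma 3.58.1), other filters, scalings and sample sets were alternatives. CPM used library totals. Labels name no batch. The titles hold animal numbers of different series, and 1 reads as a date, with no meaning given, so they were not used as batches. Replicate numbers pair no animals. P-values measure the spread between mice. No library duplicated another (lowest chi-square per degree of freedom 32.1 in Winnie and 59.8 in Winnie-Prolapse). Tests recovered known changes in simulated counts that had the same dispersion in every gene and no other tissues. That checks the code and does not measure power or error in these data.

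Gene lists, members and named genes were chosen with earlier results of these data known. Of 814 list genes, 812 matched. Named genes were the 10 largest increases and decreases among called genes without overlap whose average log2 CPM was 1 or more, the most abundant and smallest-p called member of each list, and Muc2. Other members are named by role, after their values were seen. Locations are from GENCODE M21. A count of 0 allows up to 3 counts, 0.0825 to 0.121 CPM, for counting error only. A result for 1 listed gene is not reported here.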

Additional observations from a re-analysis of the deposited data

Results flagged for a closer look

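Each named gene was checked in both Winnie groups for 1 library standing apart from the others of its group on the log2 scale. Of 180 such checks, 11 found one (Dixon's test at 95%), a pattern to be read knowing that chance marks about 1 in 20 groups. In Winnie-Prolapse replicate 6, Csn2 was highest at 72800 CPM and Csn1s2a at 24100 CPM, while Cyp2c68 was lowest at 9.67 CPM and Krt19 lowest at 1780 CPM. In Winnie replicate 2, Gstm1 at 145 CPM and Maob at 42.1 CPM were lowest and Spink5 at 1.38 CPM was highest. In Winnie replicate 3, Acta1 was highest at 33.2 CPM and Ccl6 lowest at 129 CPM. Sprr1a was lowest in Winnie replicate 5, at 3.22 CPM, and Slc16a3 in Winnie replicate 6, at 7.13 CPM. No named gene had a sex by group interaction at an adjusted p under 0.05.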

How the results depend on the processing

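The settings without named libraries and the clock list were chosen after seeing the data. The 727 upregulated and 464 downregulated genes became 1406 and 1086 in females alone, 0 and 0 in males alone, 1626 and 853 with DESeq2 and 0 and 0 at an adjusted p under 0.001. Downregulated genes numbered 258 with sex as a covariate, 717 with all 3 groups in one fit and 243 at 2-fold. They were 15 and 2 without the 3 libraries rich in skeletal muscle genes and 6 and 1 without the 6 libraries with Krt5, where fewer samples were tested. Leaving out 1 library gave 272 to 1108 upregulated and 160 to 843 downregulated genes. At least 1 of the counts moved by over 1.5 times without Winnie replicate 2 (1108 and 786), 3 (448 and 299), 4 (272 and 160), 5 (338 and 170), 6 (376 and 250) or 7 (413 and 321). The same held without Winnie-Prolapse replicate 2 (599 and 274), 3 (1037 and 843), 4 (322 and 212), 5 (371 and 186) or 6 (397 and 211). The sex by group interaction called 0 to 42 genes when 1 library was left out, with 42 without Winnie-Prolapse replicate 4 and 18 without Winnie replicate 7. The remaining filters, scalings and limits, and limma-voom, kept both counts within 1.5 times.

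Of the 90 named genes, 86 kept their direction and side of the threshold with DESeq2, 81 with limma-voom, 79 in females and 32 in males. Without the muscle-rich libraries 40 of 90 did so, and without the libraries with Krt5 34 of 89. Without the libraries with Krt5, Krt10 turned to -0.32 and Acta1 to -1.59, and Acta1 was at -1.05 without the muscle-rich libraries. List medians were taken over the members tested in each setting. Those that changed sign by more than the spread between replicates were those of mast cells and eosinophils (-0.26 with at least 10 counts in every library, -0.46 without the libraries with Krt5), enteroendocrine and tuft cells (0.065 in males), skeletal muscle (-1.18 without the muscle-rich libraries, -1.62 without those with Krt5), male accessory gland and urothelium (1.18 in males, 0.73 without those with Krt5) and hair and skin (-0.26 without those with Krt5). Smaller changes of sign were seen in males for interferon response (-0.09), MHC class II (-0.15), cell cycle (-0.15) and goblet cell genes (0.06), without the libraries with Krt5 for cell cycle (-0.05) and goblet cell genes (0.105), and without the muscle-rich libraries for accessory gland and urothelium (0.38). The medians of serine proteases and prostaglandin genes lay near 0 and also crossed it. That of mesothelium and pancreas, -0.13 over 3 members, reached 0.48 to 1.93 in 6 settings. The cause of these changes was not tested. No paired analysis was possible because the labels number no replicates across groups. Depth limits genes under about 0.1 CPM, where a library has some 3 counts.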
